A study of Caenorhabditis elegans with 8 samples.

Results

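Coding genes that overlap tail to tail, on opposite strands, were followed in RNA-seq counts from Caenorhabditis elegans larvae. A row of the count table was taken when it belonged to a protein-coding gene whose exons share at least 20 bases with those of exactly 1 protein-coding gene on the other strand, and the 2 genes meet at their 3′ ends in the Ensembl WBcel235 annotation. Of 45461 rows, 2381 met this rule, 6 were left out by name, and 2375 remained, which is 5.22% of the table. They form 1143 pairs in which both genes have a row, so 2286 rows are in complete pairs. The partners of the other 89 rows had no matched row, were left out or overlap further coding genes; these rows had a median of 29 counts and at most 4013, and 28 of them passed the filter on low counts.

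The worm genome is compact, and neighbouring genes that are transcribed towards each other often end in overlapping 3′ untranslated regions. In such a pair the 2 messenger RNAs are copied from opposite DNA strands and are complementary over the shared stretch. A sequencing read from that stretch can be given to the right gene only if the library keeps the strand of the RNA and the counting reads that strand correctly.

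All libraries came from whole larvae at the L2 stage of 1 strain, N2 jrIs2[Prpl-17::Grx1-roGFP2], in which the promoter of the ribosomal protein gene rpl-17 drives a sensor of the glutathione redox state. Larvae were grown at 20 °C on NGM plates with live E. coli OP50 and were compared as a reduced group and an oxidized group, with 4 biological replicates in each, numbered 1, 2, 3 and 5, and about 10000 pooled worms behind a replicate. Every larva carries the sensor, so no group lacks the transgene. For replicate 5 another label gives the opposite state. The characteristic that names the redox state was followed here. By that characteristic the titles say High for each reduced sample and Low for each oxidized one, replicate 5 included. The molecule label says polyA RNA, while the protocol describes depletion of ribosomal RNA and a stranded total RNA kit.

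The 8 libraries held 635990 to 1089259 counts, so 3 counts, the limit that a count of 0 allows, correspond to 2.75 to 4.72 CPM, the counts of a row scaled to a common library size. Intervals and floors of this kind cover counting error only. In all, 32245 rows of the table held no count. Among marker rows for the larval tissues, the hypodermal collagen sqt-3 held 26235 counts and the muscle myosin unc-54 held 1935, each the highest of its tissue. Other hypodermal rows held 4125 (rol-6), 160 (dpy-7) and 34 (bli-1). Intestinal rows held 1383 (asp-1), 276 (cpr-6), 20 (ges-1) and 6 (elt-2). Pharyngeal rows held 38 to 210 counts, neuronal rows 17 to 481 and germ line rows 8 to 24, so many marker rows were low. The yolk protein genes vit-2, vit-5 and vit-6, which adults express, were at 0. The kit is a stranded one, but the sources used here do not give the strand setting of the counting. Whether a row holds reads of its own gene or of the gene opposite was therefore not tested for single rows, and the text speaks of rows and gives the role of the gene whose name a row bears.

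The shared stretches were short. They ran from 20 to 1160 exon bases, with a median of 60 and quartiles of 37 and 90. In 829 of the 1143 pairs (72.5%) the stretch was untranslated in both genes, in 276 it was coding in 1 gene, and in 38 each gene had coding bases in it. Only 11 pairs had bases that are coding on both strands. Chromosome V held most pairs, 259, and chromosome IV fewest, 154; the X chromosome held 158. Of the threshold itself, rows that share 20 to 24 bases had a median of 13 counts and 24.6% of them held at least 80 counts, an average of 10 a library. Rows just outside, which share 15 to 19 bases, had a median of 11 and 22.6%.

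Rows of these pairs held more of the table's counts than their number. They held 1609720 of 6407344 counts, or 25.1%. This was not particular to them, as 32245 rows of the table held no count. The 3174 coding rows with a convergent neighbour within 500 bases but under 20 shared bases held 30.6% of all counts. The share of the member rows was 24% ± 1.15 (SD, n = 4) in reduced libraries and 26.4% ± 1.82 (SD, n = 4) in oxidized ones. In single libraries it was 22.8%, 23.3%, 25.3% and 24.6% for reduced replicates 1, 2, 3 and 5, and 25.5%, 29.0% and 26.1% for oxidized replicates 1, 2 and 3. Member rows held 165699 of 664302 counts in oxidized replicate 5, a share between those of reduced replicates 5 and 3. The groups thus overlapped, while within each of the 4 replicate numbers the oxidized library had the higher share. The let-754 row alone held 19142, 24200, 22899 and 16549 counts in reduced replicates 1, 2, 3 and 5. It held 67282, 30132, 27245 and 17266 in the oxidized ones. With the let-754 counts taken out of the member counts, the oxidized library no longer had the higher share in replicates 1, 3 and 5. It still had the higher share in replicate 2. The order within replicate numbers thus rested on this 1 row and is not read as a trait of the member rows. A few rows carried much of the share: the 10 highest held 637077 counts, 39.6% of what all member rows held. At the other end 510 rows (21.5%) held no count, the median row held 19, and 665 rows (28.0%) held at least 80.

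Coding rows with a facing neighbour were compared by how near that neighbour lies. Where the 3′ ends share at least 20 bases, 28.0% of 2375 rows held at least 80 counts. Where they share 1 to 19 bases, 20.2% of 727 rows did. Where the ends are 0 to 49 bases apart the share was 13% of 552 rows, and at 50 to 99 bases it was 7.81% of 256. From 100 bases on it lay between 5.32% and 6.44% in 4 further ranges, the widest starting at 1000 bases. The share of well-counted rows therefore fell at each step out to 100 bases and changed little beyond. Annotated exon length moved with the arrangement too, from a median of 1393 bases in tail-to-tail rows to 1143 bases in coding rows with no such neighbour, and its part in the difference was not tested.

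**Figure D1:**
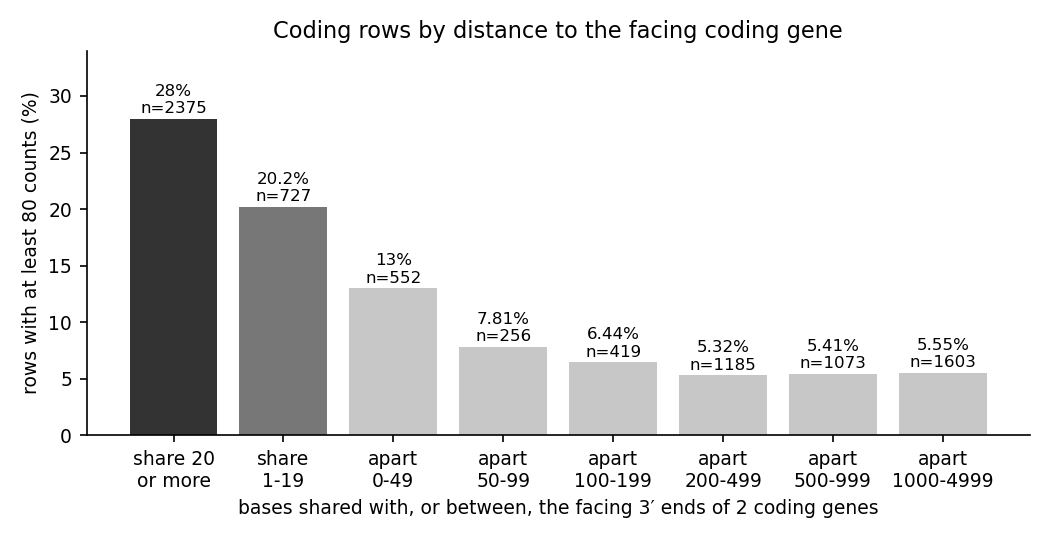
Share of coding rows with at least 80 counts over the 8 libraries (vertical axis, percent) by the bases shared with, or lying between, the facing 3′ ends of 2 coding genes (horizontal axis). Bars are shares of all rows in a range, with the number of rows written above; the share falls from 28.0% of overlapping rows to 5.55% of rows whose neighbour ends 1000 bases or more away.

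Other arrangements of an overlapping coding gene gave shares on both sides of that value. Rows with a head-to-head overlap, where the 5′ ends meet, held at least 80 counts in 22.1% of 149 cases, and rows in a nested overlap in 39.6% of 139. Rows that overlap several coding genes on the other strand did so in 54.7% of 53. Coding rows with a convergent neighbour within 500 bases but under 20 shared bases did so in 10.6% of 3174, and coding rows with none of these neighbours in 6.08% of 13360. Empty rows were common in the last class, where 50.8% held no count, against 21.5% in tail-to-tail pairs. The tail-to-tail arrangement did not give the highest share, and no test was made of these shares because rows of a pair are not independent.

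Within the tail-to-tail rows, a longer shared stretch went with more counts, weakly. Across the 2286 rows of complete pairs, Spearman's rho between shared bases and counts was 0.15, a description over rows that share libraries and, in pairs, the stretch itself. Rows sharing 20 to 49 bases had a median of 13 counts, and those sharing 200 to under 500 had 34.5. The 6 pairs that share 500 bases or more had a median of 892.5 counts a row, a value that rests on few pairs. Exon length had about the same relation to counts, with a rho of 0.13.

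The 2 rows of a pair were usually far apart in counts, though not unrelated. Across the 1143 pairs, Spearman's rho between the counts of the plus-strand and minus-strand rows was 0.5. In 474 of 1143 pairs (41.5%) the higher row held at least 80 counts, and in 163 (14.3%) both rows did. In those 474 pairs the higher rows held 1498093 counts and the lower rows 74596, so 95.3% lay in the higher rows. The median higher row held 396.5 counts and the median lower row 45.5. The ratio of higher to lower row had a median of 12.7 and quartiles of 3.75 and 56.6, a row at 0 being set to 3 counts. At least 10-fold separated the rows in 257 pairs (54.2%), at least 100-fold in 71, and less than 2-fold in 63 (13.3%). Counted per kilobase of exon, 263 pairs differed at least 10-fold, and the row higher in counts was also the higher one per kilobase in 439 of the 474 (92.6%).

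Which row of a pair was the higher one, by counts summed over the same 8 libraries, was mostly the same from library to library. Agreement between libraries is partly built into that choice. The higher row split about evenly over each feature examined. The same row was higher in all 8 libraries in 333 of 474 pairs (70.3%), and in 238 of the 257 pairs that differed at least 10-fold. The higher row lay on the plus strand in 243 pairs (51.3%) and belonged to the gene with fewer exon bases in 233 (49.2%). Where the stretch was coding in just 1 of the genes, that gene had the higher row in 62 of 124 pairs. The lower rows' share of pair counts was 4.85% ± 1.1 (SD, n = 4) in reduced and 4.55% ± 0.653 (SD, n = 4) in oxidized libraries, a difference smaller than the SD of either group.

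**Figure D2:**
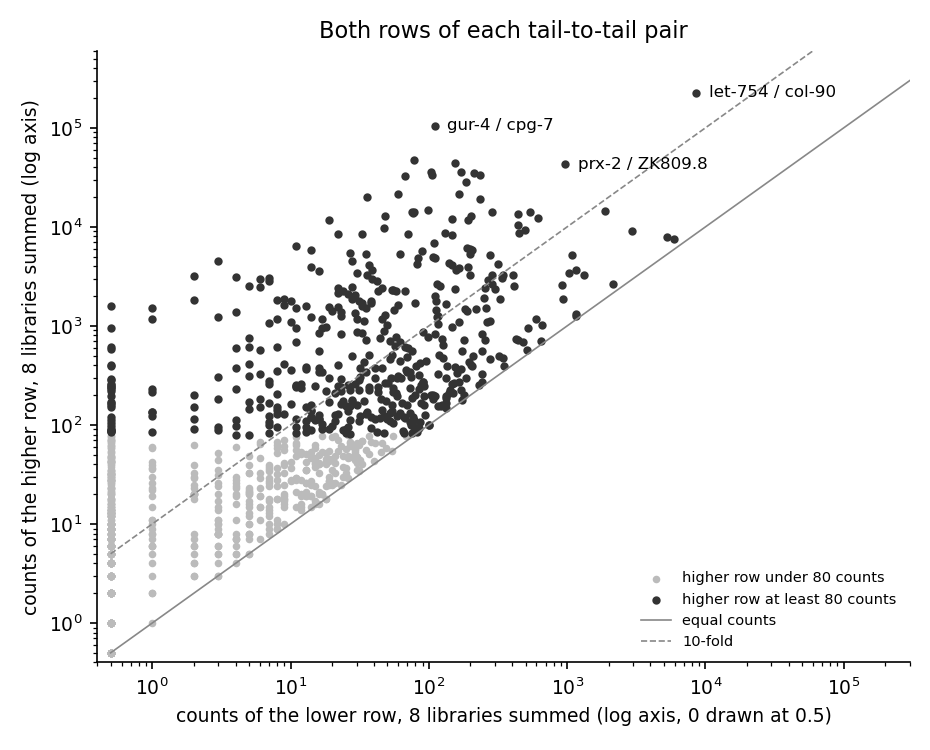
Counts of the higher row (vertical axis) against the lower row (horizontal axis) of each of the 1143 pairs, summed over 8 libraries, both on log axes with 0 drawn at 0.5. Dark points are the 474 pairs whose higher row holds at least 80 counts; 257 of them lie on or above the dashed 10-fold line once an empty row is set to 3 counts.

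A large gap was also common between neighbours with less or no overlap. Convergent coding neighbours that share fewer than 20 bases formed 1561 pairs, and in 282 of these (18.1%) a row held at least 80 counts. The median ratio in those was 23.8, and 61% differed at least 10-fold. Both rows held at least 80 counts in 61 of the 1561 pairs (3.91%), against 14.3% of tail-to-tail pairs. Among tail-to-tail pairs, those sharing 100 to under 200 bases had a median ratio of 25.5, those sharing 200 to under 500 had 6.06, and the 5 sharing 500 or more whose higher row held at least 80 counts had 3.27, so the ratio did not change evenly with overlap.

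The pair with the most counts joins let-754, which encodes an adenylate kinase that interconverts adenine nucleotides, and col-90, a cuticle collagen. They overlap over 98 bases on chromosome III (7949971 to 7950068), untranslated in both genes. The let-754 row was the third highest of the whole table, with 224715 counts, 3.51% of all. The col-90 row held 8579 counts, the most of any lower row. Per kilobase of exon the rows held 188000 and 7590 counts. The let-754 row stood at 26300, 25300, 32700 and 20500 CPM in reduced replicates 1, 2, 3 and 5, and at 62800, 43900, 43900 and 25900 CPM in the oxidized ones. It was higher in the oxidized library of each of the 4 replicate numbers, yet oxidized replicate 5 lay inside the reduced range. Its log2 fold change was 0.75 (SE 0.31, edgeR adjusted p = 0.773), and that of col-90 was 0.71 (SE 0.38, edgeR adjusted p = 0.999), or 0.20 without oxidized replicate 1.

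The next pair joins gur-4, a gustatory receptor family gene, and cpg-7, a chondroitin proteoglycan gene, over 67 bases on chromosome II (14108028 to 14108094). The gur-4 row held 104073 counts, with 8517 to 16770 in single libraries, and was the seventh highest of the table. The cpg-7 row held 110 counts, with 1 to 27 in single libraries. The lowest gur-4 library thus lay far above the highest cpg-7 library. Mean levels of the gur-4 row were 17000 ± 5080 CPM in reduced and 16900 ± 3900 CPM in oxidized libraries (SD, n = 4), and the fitted difference was -0.01 on the log2 scale (SE 0.31, edgeR adjusted p = 0.999).

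R02F11.3 and R02F11.1 overlap over 49 bases on chromosome V, and their rows held 47753 and 78 counts. The R02F11.3 row stood at 13600, 3830, 3780 and 4120 CPM in reduced replicates 1, 2, 3 and 5 and at 7220, 12800, 7750 and 10300 CPM in the oxidized ones. Reduced replicate 1 was apart from its group and above all oxidized libraries, and the other 3 reduced libraries lay below all 4. Over all libraries its log2 fold change was 0.58 (SE 0.38, edgeR adjusted p = 0.999); without reduced replicate 1 it was 1.27 with an adjusted p of 0.0303. The R02F11.1 row was at 15.1, 5.22, 1.43 and 2.48 CPM in reduced and 11.2, 23.3, 33.9 and 15.0 CPM in oxidized libraries, again with reduced replicate 1 highest of its group.

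The other 7 of the 10 pairs with most counts had the same shape, with the higher row above the lower in 8 of 8 libraries. The melo-1 row held 44260 counts and that of gdi-1, whose protein recycles Rab GTPases, held 154. The prx-2 row held 42698, and that of ZK809.8, with which it shares 426 bases, held 970. The prx genes are named for peroxisome assembly. The C56C10.9 row held 35504 and that of vps-32.1, an ESCRT-III subunit for sorting into multivesicular bodies, held 172. The dpf-4 row, of a dipeptidyl peptidase family gene, held 35510 and that of dnpp-1, an aspartyl aminopeptidase gene, held 103. The F01F1.3 row held 35276 and that of aldo-2, a fructose-bisphosphate aldolase of glycolysis, held 211.

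The last of these pairs involve a signalling gene and a regulator of lipid synthesis. The ctsa-1.2 row, of a gene named for cathepsin A, held 33675 counts and that of gpb-1, a G protein beta subunit, held 233. The row of sbp-1, the worm homologue of the sterol regulatory element binding protein, held 33613 and that of idpc-1 held 106. The sbp-1 row stood at 18300 CPM in reduced replicate 1 and at 2340 to 2940 CPM in the other reduced libraries, with 2360, 6050, 3380 and 7280 CPM in oxidized replicates 1, 2, 3 and 5. Of the 10 higher rows, sbp-1 had the lowest log2 fold change, -0.47 (SE 0.51, edgeR adjusted p = 0.999), and let-754 the highest. With the replicate number as a block sbp-1 was at 0.16. None of the 10 passed the test.

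**Figure D3:**
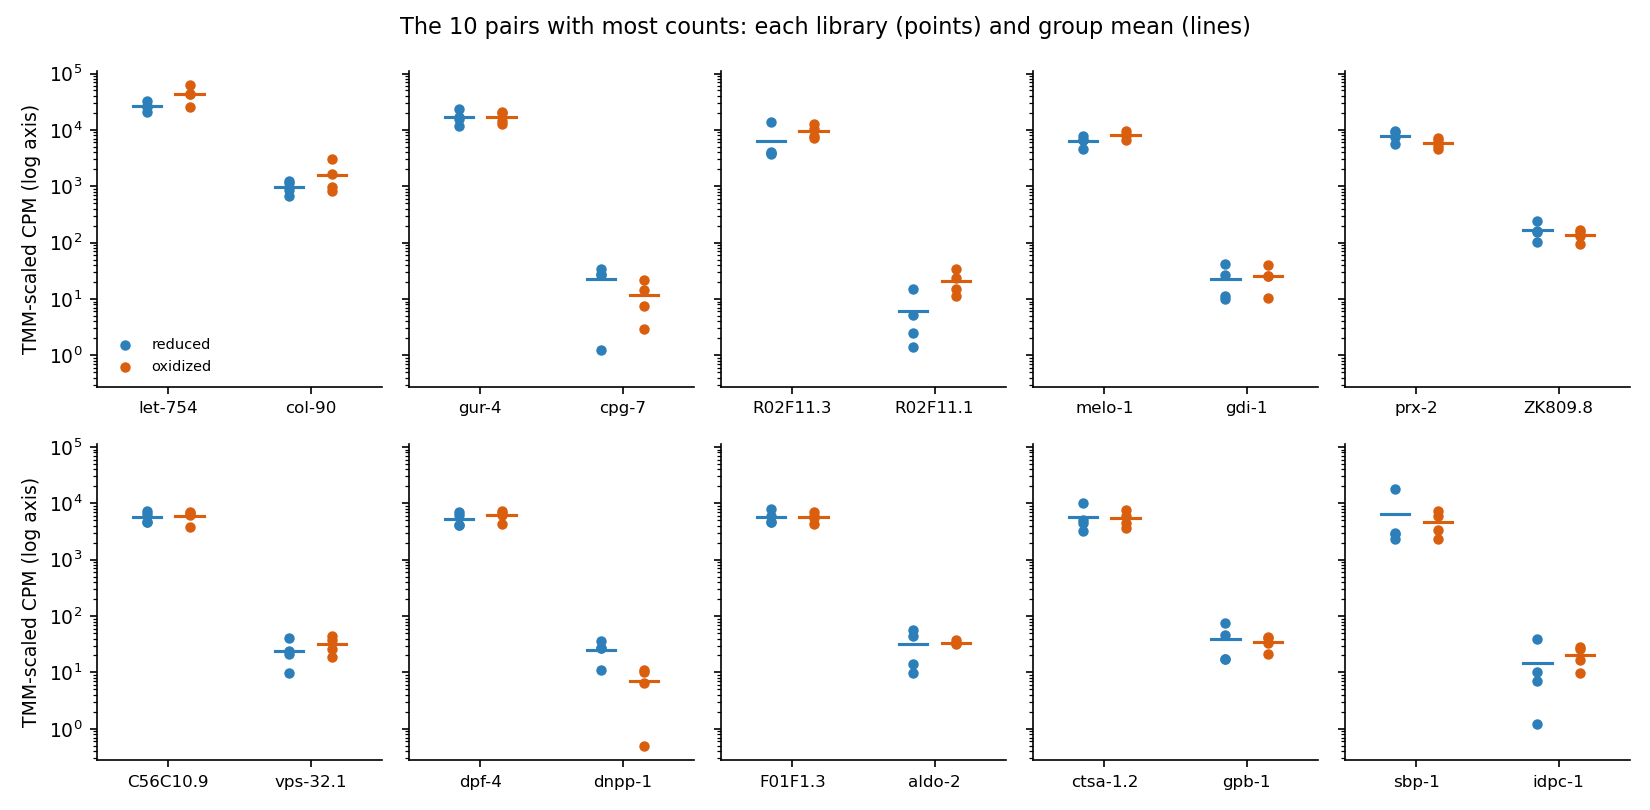
TMM-scaled CPM of both rows in the 10 pairs with most counts, on a log axis with 0 drawn at 0.5. Points are single libraries, 4 reduced and 4 oxidized, and lines are group means; in every pair all points of the higher row lie above all points of the lower one, and reduced replicate 1 stands apart in R02F11.3 and sbp-1.

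Of the 5 most equal pairs with at least 80 counts in each row, 4 had low counts. The rows of pdp-1, a pyruvate dehydrogenase phosphatase gene, and ZK973.9 held 101 counts each, and those of Y52B11A.3 and Y52B11A.4 held 101 and 100. The rows of ZK287.1 and of sulp-8, a sulfate permease family gene, held 84 and 82. The rows of gpcp-2 and of pdha-1, the alpha subunit of pyruvate dehydrogenase, held 179 and 174. Equal totals hid unequal libraries: the pdp-1 row held 7, 0, 2 and 20 counts in reduced replicates 1, 2, 3 and 5, where the ZK973.9 row held 6, 29, 13 and 0. Among the 5 most equal pairs, the one with over 1000 counts in each row joins arf-5, a small GTPase of the ARF family with 1245 counts, to mec-17, the alpha-tubulin acetyltransferase of touch neurons, with 1159. Over 51 shared bases on chromosome IV, those rows held 1320 and 1120 counts per kilobase.

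The longest overlaps among well-counted pairs were in receptor, lipocalin and globin genes. The genes nhr-85, a nuclear hormone receptor, and npr-14, a neuropeptide receptor, share 835 bases, and their rows held 283 and 31 counts. The rows of lpr-2, a lipocalin-related gene, and H01G02.3 share 821 bases and held 3242 and 1326 counts, or 946 and 759 per kilobase. The rows of glb-26, a globin, and T22C1.1 share 648 bases and held 3383 and 1035. In the lpr-2 pair the higher row lay between 392 and 770 CPM in all libraries and the lower one between 53.2 and 368 CPM, so the ranges did not overlap.

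Functional lists were read for which row of the pair was the higher. The 15 lists held 174 genes in complete pairs, and 94 of these were in a pair whose higher row held at least 80 counts. The gene's own row was the lower one for 54 and the higher one for 40. Per kilobase of exon the own row was the lower for 50, and the order was unchanged for 86 of 94. As each pair has 1 higher and 1 lower row, an even split is the background for such a count, and nothing particular to the lists was drawn from it.

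Enzymes that handle peroxide, superoxide and thiols bear on the sensor's chemistry, and 8 of 11 had the lower row. The row of sod-4, an extracellular superoxide dismutase, held 11 counts, 10 of them in reduced replicate 5, where that of ctr-9, a subunit of the PAF1 transcription complex, held 6433. The row of glrx-10, a glutaredoxin and so of the family fused to the sensor, held 89 against 5747 for Y34D9A.8. The row of the catalase gene ctl-2 held 108 against 4976 for Y54G11A.7. In the other direction, the row of the thioredoxin gene trx-1 held 4850 against 110 for the copine cpna-2, and that of the glutathione reductase gene gsr-1 held 2630 against 2135 for C46F11.5. The glrx-10 row was at 15.1, 14.6, 24.2 and 17.4 CPM in reduced and 12.1, 13.1, 9.68 and 7.5 CPM in oxidized libraries. These groups did not overlap, but the log2 fold change of -0.70 (SE 0.67) had an edgeR adjusted p of 0.999.

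Genes of translation were read in 3 lists. All 7 of 7 translation factors and aminoacyl-tRNA synthetases had the lower row, among them cars-1, the cysteinyl-tRNA synthetase, with 406 counts against 3300 for Y23H5A.2, and rars-1, the arginyl-tRNA synthetase, with 80 against 1686 for cee-1. Of 3 cytosolic ribosomal proteins, rps-18 held 3284 counts against 197 for hhat-2 and rpl-28 held 1367 against 4 for R11D1.13, while rpl-2 held 2938 against 9038 for dhcr-7. Of 6 mitochondrial ribosomal proteins, 4 had the lower row, such as mrpl-12 with 36 counts against 20033 for W09D10.5 and mrpl-24 with 16 against 3620 for C09D4.1. The remaining mitochondrial members, mrpl-34 with 2502 and mrpl-19 with 2393, had the higher row.

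Structural and transport genes were split in a similar way. The own row was lower for 5 of 6 cytoskeleton, muscle and motor genes: mlc-2, a myosin light chain, held 5954 counts against 7457 for C36E6.2 but more per kilobase, 9290 against 3970, and pat-2, an integrin alpha subunit of muscle attachments, held 48 against 12760 for F54F2.9. It was lower for 8 of 13 membrane traffic genes, such as sec-23, a COPII coat subunit, with 286 against 14090 for the sodium-calcium exchanger ncx-1. It was higher for 4 of 5 cuticle collagens, col-90 being the exception. The row of col-156 held 14313 counts and that of mig-17, a secreted ADAM protease, held 1873, and the row of col-121 held 1173 against 46 for daf-15, the worm Raptor of the TORC1 complex. Of 3 vacuolar ATPase genes the row was higher for vha-19, with 2985 against 6 for otub-4, and lower for vha-17, with 67 against 2256 for nspg-11.

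Nuclear genes gave counts in both directions. The own row was higher for 6 of 7 RNA processing genes, for instance snr-6, an Sm protein of the spliceosome, with 1870 counts against 28 for pie-1, a germ line zinc finger gene. The row of prp-18, a splicing factor, held 587 counts where that of the nuclear receptor nhr-4 held 0, so it was at least 196-fold higher against a floor of 3 counts over the 8 libraries. Of 5 nuclear hormone receptors in such pairs, 3 had the lower row. The own row was lower for 6 of 10 genes on the chromatin list, such as the H3K4 demethylase gene rbr-2, with 110 against 1986 for dnc-1, a dynactin subunit. That list was made by name prefix and takes in lin-3, an EGF-like ligand and no chromatin gene, with 5167 counts against 276 for ttr-16. It also takes in lin-24, lin-25, wdr-37 and wdr-46 by prefix alone, so its count is not one of chromatin genes only.

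Protein folding and turnover made up the remaining lists. The own row was higher for 6 of 9 chaperone and folding genes, with 21292 counts for phb-2, a mitochondrial prohibitin, against 164 for F13H8.5, and lower for cyn-4, a cyclophilin, with 165 against 1086 for the actin capping protein cap-2. Of 5 proteasome and ubiquitin genes, 3 had the lower row, such as ubc-12, the conjugating enzyme for the ubiquitin-like NEDD8, with 618 against 12249 for mag-1, an exon junction factor. The row of pbs-4, a proteasome beta subunit, held 4243 against 315 for mrrf-1. Respiratory chain genes numbered 2, and the row was the lower for cox-15, at 73 counts opposite T06D8.2, and the higher for gas-1, of complex I, opposite K09A9.6 at 103. Of 2 kinases and phosphatases, pph-4.1 held 3257 against 36 for zip-1, and cdk-8, of the Mediator complex, 141 against 210 for cle-1.

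Oxidized and reduced libraries were then compared row by row, in 1 fit over all rows of the table. Of 2375 member rows, 652 (27.5%) passed the filter on low counts, and they made up 28.2% of the 2315 rows tested. With edgeR's quasi-likelihood test and Benjamini-Hochberg adjustment, 0 of the 652 passed at an adjusted p of 0.05, where 0.216% of all tested rows did. Without adjustment, 30 member rows (4.60%) had a p under 0.05, beside 5.27% of all tested rows. Of those, 17 were higher in oxidized libraries (background 2.98%) and 13 were lower (background 2.29%). DESeq2 also called 0 members, beside 0.389% of all rows, with 28 members and 4.71% of all rows under an unadjusted 0.05. For limma voom these values were 0 beside 0.13%, and 24 members beside 5.01%. With the replicate block they were 0 beside 0.648%, and 28 members beside 5.75%.

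Member rows as a whole were centred near no difference. Their median log2 fold change was -0.02, with quartiles of -0.29 and 0.28, beside a median of -0.05 and quartiles of -0.36 and 0.31 over all rows tested. Values were above 0 for 313 rows and below 0 for 339. A difference past 2-fold in either direction was seen for 59 rows (9.05%), against 10.5% of all tested rows. The groups did not overlap in CPM for 12 rows higher in oxidized libraries (1.84%, beside 2.03% of all tested rows) and for 7 lower ones (1.07%, beside 0.994%). The median SE of a member's log2 fold change was 0.56, and the biological coefficient of variation was 58.3%. In counts simulated with the means and spread of the 2315 tested rows, the fit called 11.4% of 2-fold changes and 56.7% of 4-fold changes. Differences well past the SE could thus be missed with these libraries, and a row not called is not one shown to be unchanged. In none of the 15 lists did a member or partner row pass at an adjusted p of 0.05.

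The smallest p among the higher rows was that of F20G2.6 on chromosome V. It stood at 1.37, 7.30, 24.2 and 1.24 CPM in reduced replicates 1, 2, 3 and 5 and at 57.9, 53.9, 45.2 and 36.0 CPM in the oxidized ones. All oxidized libraries lay above all reduced ones, where the row held 1, 7, 17 and 1 counts. With so few it met the filter on low counts through the oxidized group. The gap and the size of the fold are therefore not read as support. The log2 fold change was 2.55 (SE 0.73, edgeR adjusted p = 0.238; 0.104 with the replicate block). Its partner row, F20G2.3, which shares 72 bases with it, held 28 counts in all and was not tested.

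The row of srab-14, a chemoreceptor family gene, was at 12.4 to 28.6 CPM in reduced and 61.3 to 111 CPM in oxidized libraries, again without overlap (log2 fold change 1.76, SE 0.54, edgeR adjusted p = 0.437). The row of upp-1, a uridine phosphorylase gene of pyrimidine salvage, was at 5.49, 0, 2.85 and 12.4 CPM in reduced and 17.7, 14.6, 21 and 81.0 CPM in oxidized libraries. This row held 4, 0, 2 and 10 counts in the reduced libraries, so it too met the filter on low counts through the oxidized group. It had the largest log2 fold change of the member rows, 2.65 (SE 0.86, edgeR adjusted p = 0.462). Oxidized replicate 5 was far above the others of its group, and without it the value was 1.76; replicate 5 is the one with conflicting labels. The partner of upp-1 is fbn-1, a fibrillin-like matrix gene, whose row held 78 counts and was not tested; it stood at 4.12 to 29.8 CPM in reduced and 0 to 7.29 CPM in oxidized libraries, which overlap.

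The other 3 rows with small p on the higher side were K07C11.7, F18A11.3 and scb-1. K07C11.7 was at 48.1 to 111 CPM in reduced and 145 to 191 CPM in oxidized libraries, with no overlap (log2 fold change 1.14, SE 0.42, edgeR adjusted p = 0.679). Its partner row timp-1, a tissue inhibitor of metalloproteinases, gave -0.23 (SE 0.81). F18A11.3 was at 16.1 to 38.6 CPM and 35.5 to 143 CPM, which overlap, and its log2 fold change was 1.56 (SE 0.58, edgeR adjusted p = 0.679), while its partner row F18A11.2, with 3058 counts, gave 0.10 (SE 0.34). Without oxidized replicate 1, which stood at 143 CPM, F18A11.3 was at 0.97.

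On the lower side, the row of glb-15, a globin, was at 136, 381, 616 and 580 CPM in reduced and 73.8, 271, 221 and 135 CPM in oxidized libraries. The lowest reduced library, replicate 1, lay inside the oxidized range, and the log2 fold change was -1.31 (SE 0.45, edgeR adjusted p = 0.679). Its partner row nlp-24, a neuropeptide-like gene, pointed the same way at -1.09 (SE 0.57, edgeR adjusted p = 0.999). The row of syx-18, a syntaxin of membrane fusion, was at 63.7 to 163 CPM in reduced and 4.67 to 59.8 CPM in oxidized libraries, without overlap, and gave -1.68 (SE 0.60, edgeR adjusted p = 0.679). The rows of cutl-18, a cuticlin-like gene, and R10E11.6 gave -1.58 (SE 0.64) and -1.74 (SE 0.73), both with an edgeR adjusted p of 0.773, and neither had overlapping groups. The R10E11.6 row held 10, 0, 5 and 8 counts in the oxidized libraries and met the filter on low counts through the reduced group. Without reduced replicate 5, which stood at 112 CPM, cutl-18 was at -0.90.

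One pair had both rows among those with the smallest p. The row of maoc-1, a peroxisomal enoyl-CoA hydratase of fatty acid beta-oxidation, was at 166, 385, 305 and 425 CPM in reduced and 62.6, 225, 171 and 179 CPM in oxidized libraries (log2 fold change -1.04, SE 0.42, edgeR adjusted p = 0.773). Its partner row E04F6.6 was at 9.61, 67.8, 87.0 and 53.4 CPM in reduced and 17.7, 5.83, 22.6 and 12 CPM in oxidized libraries. It gave the largest fall among the members, -1.88 (SE 0.67, edgeR adjusted p = 0.679). In both rows reduced replicate 1 was the lowest of its group and lay inside the oxidized range. The genes share 105 bases on chromosome II.

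**Figure D4:**
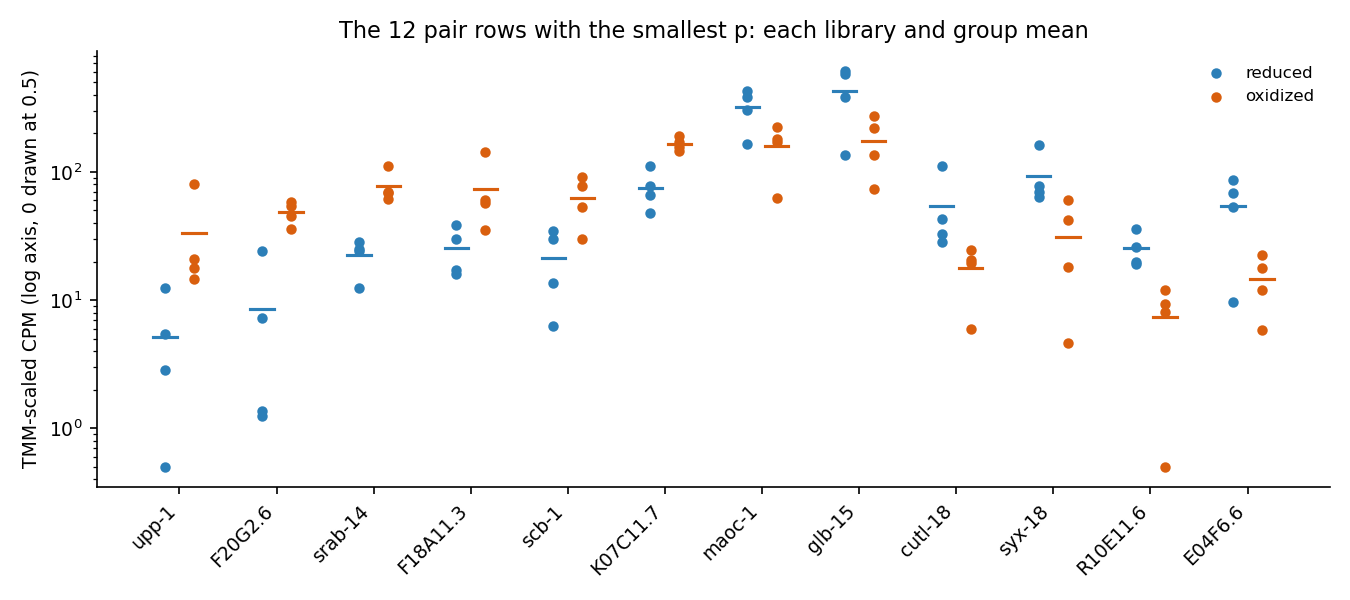
TMM-scaled CPM of the 12 member rows with the smallest p, 6 in each direction, on a log axis with 0 drawn at 0.5. Points are the 4 reduced and 4 oxidized libraries and lines are group means. In 7 of the 12 rows the groups do not overlap, which is partly built into a choice by smallest p. Over all tested rows the groups did not overlap in 2.03% (higher in oxidized) and 0.994% (lower). None of the 12 passed at an adjusted p of 0.05.

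The redox differences of the 2 rows of a pair had a low correlation. In 159 pairs both rows passed the filter. Their log2 fold changes had the same sign in 88 (55.3%), and across these pairs Pearson's r was 0.07 and Spearman's rho 0.1, as a description of points that share all 8 libraries. Across the libraries, the log2 CPM of the 2 rows of a pair correlated with a median r of 0.1 over the 159 pairs, from -0.84 to 0.9, with 94 above 0. In 59 pairs of convergent coding neighbours that share fewer than 20 bases, the median r was 0.2. The median was thus no higher in the tail-to-tail pairs, and no test was made of that difference.

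**Figure D5:**
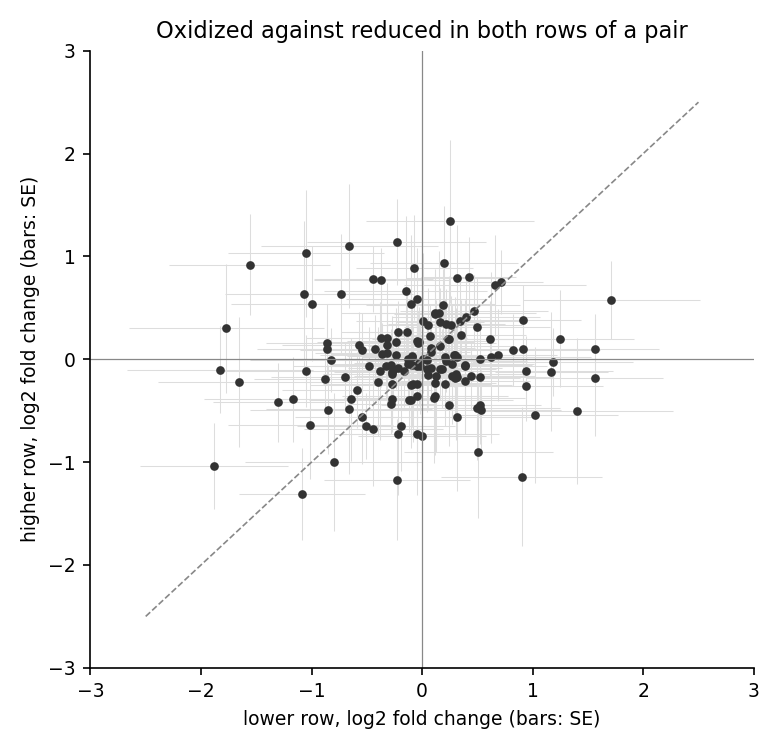
Log2 fold change, oxidized over reduced, of the higher row (vertical axis) against the lower row (horizontal axis) in the 159 pairs with both rows tested. Bars are SE from the edgeR fit and the dashed line marks equal values; 88 of 159 points have the same sign in both rows.

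The 2 rows of a pair were tested against each other by an exact two-sided permutation test of their log2 ratio over the 8 libraries. Its smallest possible p is 0.0286, from 70 relabellings, and 6 of 159 pairs (3.77%) reached it without adjustment over the 159 pairs. Relabelling at random brings about a share of 0.0286 of pairs to that p. The 6 pairs are near that share and are named as a description, not as pairs shown to differ. The number that reached the smallest p was 3, 1 and 2 without oxidized replicates 1, 3 and 5. The median size of the difference in log2 fold change was 0.40, and it was over 1 in 27 pairs. It was largest for crn-2, a cell-death-related nuclease gene, with -1.56 (SE 0.73), and zhit-1, a zinc finger HIT gene, with 0.92 (SE 0.49). The crn-2 row was at 39.8, 26.1, 31.4 and 24.8 CPM in reduced and 0, 13.1, 9.68 and 22.5 CPM in oxidized libraries, and the zhit-1 row at 50.8, 31.3, 55.6 and 75.7 CPM and 94.3, 139, 45.2 and 123 CPM. The crn-2 groups did not overlap and those of zhit-1 did. The crn-2 row held 0, 9, 6 and 15 counts in the oxidized libraries and met the filter on low counts through the reduced group. With their 167 shared bases, the rows had an exact permutation p of 0.0286. The crn-2 value was -0.98 without oxidized replicate 1 and -2.88 with limma voom.

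Another 3 pairs at that p are named above for their counts or a small p, R02F11.3 with R02F11.1, cee-1 with rars-1, and scb-1 with its partner math-33. In the last pair scb-1 was at 6.26 to 34.8 CPM in reduced and 29.9 to 90.4 CPM in oxidized libraries and gave 1.56 (SE 0.62), while math-33, a deubiquitinase gene, gave -0.18 (SE 0.57). In the cee-1 pair the arginyl-tRNA synthetase row rars-1 gave 0.94 (SE 0.70) from 80 counts, and cee-1 gave -0.26 (SE 0.34). The pairs C18B2.3 with C18B2.4, and him-19 with Y95B8A.6, were singled out after their values were seen, with differences in log2 fold change of 0.71 and -0.49.

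Further pairs with widely differing rows did not reach that p. The row of gly-12, an N-acetylglucosaminyltransferase gene of glycan synthesis, gave -1.77 (SE 0.88) and F48E3.2 gave 0.30 (SE 0.63). The row of asm-1, an acid sphingomyelinase gene, gave -1.05 (SE 0.71) and that of cyn-10, a cyclophilin, 1.03 (SE 0.62). The rows of F02D8.4 and cdt-2, a substrate receptor of a ubiquitin ligase in DNA replication control, gave -1.14 (SE 0.68) and 0.90 (SE 0.73). The rows of F17C11.4 and clec-221, a C-type lectin, gave 1.40 (SE 0.87) and -0.50 (SE 0.71). Of these 8 values, 6 moved by over 1.5 times when 1 library was left out, such as gly-12 to -3.07 without oxidized replicate 5 and F48E3.2 to 1.10 without reduced replicate 5. Each of these 8 rows held 66 to 188 counts, and the smallest edgeR adjusted p among them was 0.944.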

How the data were processed

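RNA from 8 samples was sequenced as paired 50 nt reads. Per the labels' protocols, stranded libraries were made with 15 PCR cycles from 100 ng of total RNA after ribosomal RNA was removed. The authors deposited raw counts per row; Bowtie2 2.2.1, TopHat2 2.0.13, Cuffdiff 2.1.1 and FastQC 0.11.3 are listed, per the submitters' processing notes. Neither the strand setting of the counting nor the genome build is stated in the sources used here. Another 2 columns of values were not used. Row names were matched to the Ensembl WBcel235 annotation, release 115: 44933 rows matched 1 gene, and the other 528 held 0.363% of counts. No sequences are shown.

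Counts were tested with edgeR 4.0.16 in R 4.3.3 (filterByExpr, TMM, robust quasi-likelihood fit on all rows, Benjamini-Hochberg over 2315 rows), with DESeq2 1.42.0 and limma 3.58.1 voom as alternatives. The scripts were tested on simulated data. The pair test added 0.5 CPM to each row before the log2 ratio. Groups follow the redox characteristic; p-values measure the spread between these biological replicates. The labels state no pairing by replicate number, so the main fit and the permutation test left it out. The fit with the number as a block was an alternative. The titles give both states of a number the same date (June 28 for replicates 1 and 2, July 7 for 3, August 6 for 5). The date does not set replicates 1 and 2 apart, and other parts of the titles differ between the states of replicates 3 and 5. Same-numbered deviations correlated at 0.06, -0.16, 0.13 and 0.3. Rows named were those with the smallest p (6 per direction), the 10 pairs with most counts, the 5 most equal, the 5 most different in redox difference, the 3 with the longest overlap, up to 2 pairs per functional list, and their partners; other list genes were added for their counts. The members, lists and rules were chosen with earlier results of these data known.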

Additional observations from a re-analysis of the deposited data

Results flagged for a closer look

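In 8 of 208 groups of 4 libraries examined, 1 library stood apart from the other 3 by a gap above Dixon's 95% critical value; chance gives about 10.4 such groups. The R02F11.3 row stood at 13600 CPM in reduced replicate 1 and at 3780 to 4120 CPM in the others. The sbp-1 row stood at 18300 CPM in the same library, against 2340 to 2940 CPM, and the phb-2 row at 5210 CPM, against 1700 to 2270 CPM. That library was high in this way for 12 member rows, 1.84% of them, and for 2.2% of all tested rows.

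In oxidized replicate 2 the srab-14 row stood at 111 CPM, against 61.3 to 69.1 CPM, and the mag-1 row at 2550 CPM, against 1680 to 1750 CPM. In reduced replicate 2 the ttr-16 row stood at 111 CPM, against 19.9 to 34.2 CPM. In replicate 5, whose labels conflict, the upp-1 row stood at 81.0 CPM in the oxidized library, against 14.6 to 21 CPM, and the syx-18 row at 163 CPM in the reduced one, against 63.7 to 76.9 CPM.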

How the results depend on the processing

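The number of member rows called was 0 in the edgeR fit and with the replicate block, DESeq2, limma voom, other scaling and no filter. It was 1 without reduced replicate 1 (R02F11.3), with a range of 0 to 1 over the libraries left out, and 1 when genes sharing at least 1 base were taken (col-149, log2 fold change 3.75, adjusted p = 0.0408, which shares fewer bases than the rule asks). The median ratio of the rows was 9.8 with a minimum of 40 counts in the higher row, 20.3 with 160, 15.2 with at least 50 shared bases, and 13.6 to 15.4 over the libraries left out. Pairs differing at least 10-fold numbered 177 to 309 over all settings. The share of counts in member rows was 17.7% with at least 50 shared bases, 24.6% to 25.5% over the libraries left out, and 15.2% without the higher rows of the 10 pairs with most counts, a setting chosen after seeing the data. With 5 CPM added in place of 0.5, 3 pairs reached the smallest permutation p in place of 6, and 1 to 7 did over the libraries left out. With the labels of replicate 5 exchanged, the log2 fold change was -0.33 for upp-1, 0.20 for syx-18, 0.68 for cutl-18 and 0.25 for clec-221; limma voom gave 0.23 for clec-221. The cause of these changes was not tested, beyond fewer pairs or rows being counted. The pair test was not run with sign flips within replicate numbers, since 4 pairs cannot give a p under 0.05. Of the 474 lower rows, 28 were at 0, and the part of depth in this was not tested.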
